A study of Homo sapiens with 4 samples.

Results

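The snoRNA host genes examined here were 10 genes that carry small nucleolar RNAs (snoRNAs) in their introns: GAS5, SNHG1, SNHG3, SNHG5, SNHG12, TCP1, CWF19L1, TAF1D, HSPA8 and NOP58. They were chosen by name, and each was to be read from a transcript cluster, the array's unit for 1 gene locus, that the platform table pairs with 1 gene symbol. Only 2 of the 10 met that condition, CWF19L1 and NOP58, among 22468 genes so named on the array. The clusters of the other 8 carry several symbols, mostly the host together with its own snoRNAs, so host and snoRNA cannot be told apart there, and their values are given by cluster. Of 44 intronic snoRNAs listed for the 10 hosts, 11 had a cluster of their own, 32 were named only in a shared cluster, and 1 (SNORD70B) had no named cluster. Hosts and pairs were chosen with earlier results of these data known. The RefSeq gene table placed all 44 inside their host. It also placed SNORA103 inside GAS5 and LOC124900306 inside SNHG1, which had no cluster of their own and are not counted here.

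RNA came from SH-SY5Y, an established human neuroblastoma line that grows out neurites under retinoic acid. One group of 2 arrays held cells with a short hairpin RNA (shRNA) against LSD1+8a, a neuronal isoform of the histone demethylase LSD1 (encoded by KDM1A) with exon 8a spliced in, and the other group of 2 arrays held cells with a control shRNA. All cells, controls included, were infected with an shRNA and then received 10 μM retinoic acid for 4 days and 50 ng/mL BDNF, a neurotrophin, in medium without serum for 3 days. The labels call the arrays of a group replicates without saying whether each was its own culture, and the spread behind all p-values here may therefore be only technical. The labels name no hairpin sequence and no second hairpin. The series set out to find genes that depend on LSD1+8a in differentiated cells.

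Most human snoRNAs are not transcribed on their own. They are cut out of an intron after the host RNA is spliced, the lariat is opened and exonucleases trim it back to the snoRNA, which proteins have already bound. C/D box snoRNAs guide 2′-O-methylation of ribosomal RNA and H/ACA snoRNAs guide its pseudouridylation, and a few take part in cutting the ribosomal precursor. Some hosts encode proteins of translation, folding or the nucleolus. Others, such as GAS5 and the SNHG genes, have no long open reading frame, and their spliced RNAs are known substrates of nonsense-mediated decay, so the level of a spliced host and that of its snoRNAs need not follow each other.

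KDM1A read 8.76 and 8.78 (log2 signal) with the LSD1+8a shRNA, against 9.10 and 9.25 with the control shRNA, a difference of -0.41 ± 0.09 (SE; limma adjusted p = 0.0298; 0.0589 after quantile normalization and 0.0573 after cyclic loess, and from 0.0558 to 0.194 with 1 array left out). This cluster covers the whole gene and does not check exon 8a itself. Median log2 signals over all genes were 6.20 and 6.25 on the LSD1+8a shRNA arrays and 6.19 and 6.16 on the control arrays. Medians of background features with GC counts 13 to 18, a rough guide to the level of an unexpressed gene, were 4.71 and 4.72, against 4.50 and 4.43. All 7 measured adrenergic neuroblast markers, the genes that define the type of cell SH-SY5Y is, lay above those background medians on all arrays, with means from 6.63 (TH) to 11.57 (DBH). Their summed linear signal was 7822 and 5948 with the LSD1+8a shRNA and 6559 and 7241 with the control shRNA. The sum hides calls in both directions. Of the 7, 2 were called higher (GATA3 by 0.47, TH by 0.35) and 1 lower (ISL1 by 0.46), beside 12.1% higher and 11.2% lower over all genes. Of 5 mesenchymal and fibroblast markers, 3 lay above background on all arrays, and PRRX1 and DCN did not. The sums over the 5 were 207 and 231, against 218 and 209. LUM, 1 of the 5, was called lower (-0.58, limma adjusted p = 0.0409) and 0 were called higher. COL3A1, in a shared cluster, was left out of the sums. Without either control array, limma called 0 of 22468 genes (9836 without control replicate 1 and 5338 without control replicate 2 at an unadjusted p under 0.05), so every call of a single gene or cluster below is lost with 1 control array fewer. Calls on snoRNA minus host values are adjusted over their own pairs and are given separately. With 1 array left out, a group has a single array that is assumed to vary like the other group, whose 2 arrays alone set the error, so such p-values are given only to show which calls rest on 1 array.

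The start sites of the hosts are shown because many snoRNA hosts are known to belong to the terminal oligopyrimidine (TOP) genes, whose RNAs begin with a C and a run of C and T. RefSeq promoters (GRCh38.p14) were at hand for 9 of the 10 hosts. Each line gives the 20 bases before the annotated first base and the 10 bases from it, on the gene's strand. Capitals mark an unbroken run of C and T that opens with C at the first base.
GAS5, chr1:173869036-173869065, minus strand: gtcgatgccatcatgaattcagatgtgttt
SNHG1, chr11:62855876-62855905, minus strand: tctccccggggagattcgttCTCatttttc
SNHG5, chr6:85678724-85678753, minus strand: tactggctgcgcacttcggtCTTTTacgtc
SNHG12, chr1:28581864-28581893, minus strand: cttgctcgcggcttcagcgcCCTTTCTCCC
TAF1D, chr11:93741486-93741515, minus strand: gggccacggaaatagccaacCCTTTTCTTC
HSPA8, chr11:123062127-123062156, minus strand: ggtggcgggcggaaaccggtCTCattgaac
TCP1, chr6:159789593-159789622, minus strand: ggtggggtggtgtgttacccagtagctcct
CWF19L1, chr10:100267629-100267658, minus strand: tccggggagcgcggattcgcattcccaatt
A C at the first base followed by 4 bases that are each C or T was found in 3 of the 9 (SNHG5, SNHG12 and TAF1D), against 4.07% of all 35116 promoters in the table. It was searched only at the annotated first base and on the gene's strand, and no match says only that the pattern is not at that base. SNHG3, not printed, also opened with no C.

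CWF19L1 and NOP58, the hosts with a cluster of their own, were both modestly lower with the LSD1+8a shRNA. CWF19L1 encodes a protein whose yeast relative acts on intron lariats released from the spliceosome. It read 6.31 and 6.38 (log2 signal) with the LSD1+8a shRNA, against 6.59 and 6.74 with the control shRNA, and the groups did not overlap. The difference was -0.32 ± 0.09 (SE), 1.25-fold lower (limma adjusted p = 0.0457 over all 22468 genes). NOP58 encodes a core protein of every C/D box snoRNP and so helps to build the particles of the snoRNAs in its own introns. It read 7.87 and 7.59, against 8.07 and 8.17 with the control shRNA, again without overlap, and LSD1+8a replicate 2 was the lower array. The difference was -0.39 ± 0.11 (SE), 1.31-fold lower (limma adjusted p = 0.0448). Calls of this kind were common on these arrays, since 11.2% of all genes were called lower and 12.1% higher, and 27.7% had both LSD1+8a shRNA arrays below both control arrays. The split of calls depended on scaling: 2525 lower and 2721 higher as deposited became 2738 and 1107 after median centring, 1932 and 1561 after quantile normalization, and 1764 and 681 after cyclic loess. Both calls lay just inside the threshold. The adjusted p of CWF19L1 was between 0.0667 and 0.210 with any 1 array left out, and that of NOP58 was 0.0338 without LSD1+8a replicate 1 and between 0.101 and 0.238 without any other array. NOP58 also missed the threshold after median centring (0.0506), quantile normalization (0.0815) and cyclic loess (0.0857).

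**Figure D1:**
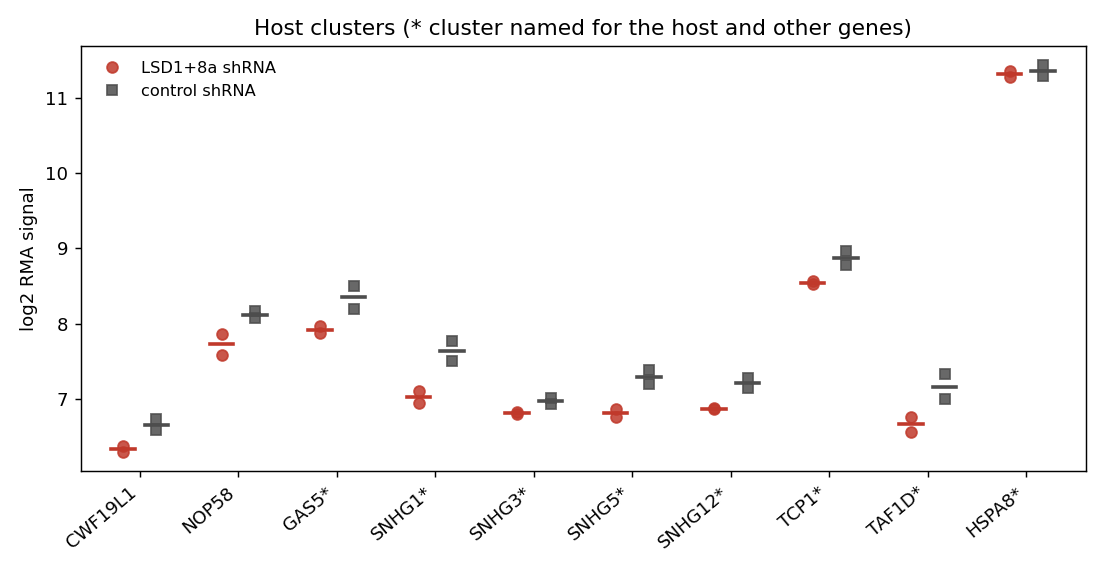
Log2 RMA signal (vertical axis) of the 10 host clusters on each array, with LSD1+8a shRNA arrays as circles, control arrays as squares and bars at the group means. An asterisk marks a cluster that carries several symbols. The groups overlap only for HSPA8, and 8 of the 10 were called lower. Over all genes with 1 symbol, 11.2% were called lower and 27.7% had both LSD1+8a shRNA arrays below both control arrays. With the clusters of several symbols added, these shares were 11.0% and 27.9%.

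SNORA12, the H/ACA snoRNA of CWF19L1, fell as its host did, with a larger difference, but the test of the gap between them missed the threshold. It read 6.46 and 5.53 (log2 signal) with the LSD1+8a shRNA, against 7.90 and 8.08 with the control shRNA. Both LSD1+8a shRNA arrays lay more than 1 log2 unit below either control array, with LSD1+8a replicate 2 the lower. The difference was -1.99 ± 0.26 (SE; limma adjusted p = 0.0106), while CWF19L1 differed by -0.32. The gap was tested on the log2 value of SNORA12 minus that of CWF19L1, which was 0.16 and -0.84 on the LSD1+8a shRNA arrays and 1.31 and 1.34 on the control arrays. This difference of differences was -1.67 ± 0.38 (SE), the lowest of 87 host and snoRNA pairs with 1 symbol each. It missed the threshold after adjustment over them (limma adjusted p = 0.0596). None of the 87 pairs passed in limma (0% in either direction), although 33 had an unadjusted p under 0.05, 30 of them with a difference of differences below 0 and 3 above. The SNORA12 pair did pass after quantile normalization (limma adjusted p = 0.0438) and cyclic loess (0.0348). It also passed among pairs above the median level (0.0434), a filter that SNORA12 cleared through its control arrays. In the wider fit of 219 pairs, added after seeing the data, the pair passed as well (0.0238). With 1 array left out its difference of differences lay between -2.17 and -1.17. The pair missed the threshold without LSD1+8a replicate 2 and without either control array.

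The C/D box snoRNAs of NOP58 were dim, and their differences were uneven between the LSD1+8a shRNA arrays. SNORD70 read 3.66 and 5.48 (log2 signal) with the LSD1+8a shRNA, against 5.84 and 5.71 with the control shRNA. LSD1+8a replicate 1 alone was far below the controls, and replicate 2 was close under them. SNORD11 had the same shape, at 2.68 and 4.42, against 4.47 and 4.95. SNORD11B was even within its groups, at 3.62 and 3.65, against 4.28 and 4.54. Both LSD1+8a shRNA arrays and 1 control array lay at or below the background medians for SNORD11 and for SNORD11B, as did LSD1+8a replicate 1 for SNORD70. SNORD11B passed the test on the lower side (limma adjusted p = 0.0122), but values at background set no size for its difference. SNORD70 and SNORD11 did not pass (limma adjusted p = 0.0952 and 0.102). For SNORD70, at background on 1 array only, the measured difference was -1.20 over all arrays and -0.29 without LSD1+8a replicate 1.

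None of the 3 NOP58 pairs passed. The limma adjusted p-values were 0.408 for SNORD70 minus NOP58, 0.419 for SNORD11 and 0.230 for SNORD11B, and 0.377 over 72 hosts for the mean of the 3 minus NOP58. Sizes are not read from these values, which rest on snoRNA signals at background, and the sign of that mean turned without LSD1+8a replicate 1.

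The shared clusters of the noncoding hosts were lower in the same arrays. They were tested in a second fit of 24008 features that adds every cluster with several symbols, in which 11.0% of features were called lower and 11.6% higher, and in 27.9% both LSD1+8a shRNA arrays lay below both control arrays. The cluster TC11001884.hg.1, which carries 9 symbols, SNHG1 and the C/D box snoRNAs of its introns, read 7.11 and 6.95 (log2 signal) with the LSD1+8a shRNA, against 7.51 and 7.78 with the control shRNA. That difference, -0.61 ± 0.12 (SE; limma adjusted p = 0.0235), was the largest in size among the 10 host clusters. GAS5, a noncoding RNA named for its rise in growth-arrested cells, shares TC01003532.hg.1 with snoRNAs of its introns (9 symbols in all). That cluster read 7.88 and 7.97, against 8.19 and 8.51, with a difference of -0.43 ± 0.12 (SE; limma adjusted p = 0.0440). The SNHG5 cluster (TC06001921.hg.1, with SNORD50A and SNORD50B) read 6.76 and 6.87, against 7.20 and 7.39, and the SNHG12 cluster (TC01002425.hg.1, with SNORA16A, SNORA44 and SNORA61) read 6.88 and 6.87, against 7.15 and 7.29. Both fell, by 0.48 ± 0.10 and 0.34 ± 0.09 (SE; limma adjusted p = 0.0276 and 0.0394). In none of these 4 clusters did the groups overlap. The cluster that holds SNHG3 (TC01000381.hg.1) also carries SNORA73A and RCC1, a coding gene whose transcripts overlap SNHG3. It read 6.83 and 6.81, against 6.94 and 7.02, and did not pass (-0.16 ± 0.08, SE; limma adjusted p = 0.164). After cyclic loess the SNHG1 and SNHG5 clusters were still called, and the GAS5 (adjusted p = 0.0885) and SNHG12 (0.0505) clusters were not. No call here held without either control array (adjusted p of 0.0664 without control replicate 1 and from 0.193 to 0.206 without control replicate 2). Without LSD1+8a replicate 1 the adjusted p was 0.123 for the GAS5 cluster, 0.0800 for SNHG5 and 0.113 for SNHG12, and without LSD1+8a replicate 2 it was 0.0616 for GAS5 and 0.0956 for SNHG12.

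Of the 3 coding hosts in shared clusters, TCP1 and TAF1D were lower and HSPA8 was not. TAF1D encodes a subunit of the factor that recruits RNA polymerase I to ribosomal DNA. Its cluster (TC11002195.hg.1, 10 symbols, with 8 snoRNAs and the microRNA gene MIR1304) read 6.57 and 6.77 (log2 signal) with the LSD1+8a shRNA, against 6.997 and 7.34 with the control shRNA. TCP1 encodes a subunit of the cytosolic chaperonin that folds actin and tubulin. Its cluster (TC06002277.hg.1, with SNORA29) read 8.56 and 8.53, against 8.78 and 8.97. The TAF1D cluster fell by 0.50 ± 0.13 and the TCP1 cluster by 0.33 ± 0.10 (SE; limma adjusted p = 0.0412 and 0.0483), and the groups overlapped in neither. HSPA8 encodes the constitutive HSP70 chaperone. Its cluster (TC11002390.hg.1, with SNORD14C and SNORD14D) read 11.36 and 11.27, against 11.29 and 11.43. These groups overlapped, and the difference was -0.04 ± 0.09 (SE; limma adjusted p = 0.740), with a 95% interval from -0.26 to 0.17. It turned to 0.08 after cyclic loess and 0.14 after quantile normalization, where the TCP1 (0.0989 and 0.0974) and TAF1D (0.0629 and 0.0564) clusters missed the threshold. With 1 array left out the adjusted p of the TCP1 cluster was between 0.0664 and 0.212. That of the TAF1D cluster was 0.0316 without LSD1+8a replicate 2 and between 0.0664 and 0.215 without any other array.

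Among the snoRNAs with a cluster of their own inside these shared hosts, the H/ACA RNAs moved most. SNORA20, in an intron of TCP1, read 5.71 and 5.22 (log2 signal) with the LSD1+8a shRNA, against 8.17 and 7.63 with the control shRNA. Its difference of -2.43 ± 0.21 (SE; limma adjusted p = 0.00445) was the lowest of all 22468 genes. SNORA73B, an H/ACA RNA of SNHG3 whose family takes part in processing the ribosomal precursor, read 9.96 and 9.67, against 10.98 and 11.18. It fell by 1.26 ± 0.12 (SE), 2.40-fold (limma adjusted p = 0.00576). In both, every LSD1+8a shRNA array lay at least 1 log2 unit below every control array.

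The C/D box snoRNAs of these hosts had smaller differences, and 3 of 5 were called. SNORD78 and SNORD75 of GAS5 read 8.45 and 8.77, and 6.48 and 6.63, with the LSD1+8a shRNA, against 9.29 and 9.11, and 6.95 and 7.17, with the control shRNA. They fell by 0.59 ± 0.13 and 0.50 ± 0.11 (SE; limma adjusted p = 0.0280 and 0.0273), and SNORD78 missed the threshold after cyclic loess (0.0841). SNORD14E of HSPA8 read 5.23 and 5.78, against 6.60 and 6.16, and fell by 0.87 ± 0.20 (SE; limma adjusted p = 0.0310). SNORD14D, from another intron of HSPA8, read 6.27 and 7.22, against 7.68 and 7.44, and did not pass (-0.81 ± 0.27, SE; limma adjusted p = 0.0597). Its difference was -0.34 once LSD1+8a replicate 1 was left out, and -1.28 when replicate 2 was. SNORD14C, SNORD14D and SNORD14E are close copies of each other and of further SNORD14 genes elsewhere, so their probes may share signal. SNORD99 of SNHG12 read 9.41 and 8.93, against 9.23 and 9.02. Its groups overlapped, and the difference of 0.04 ± 0.16 (SE; limma adjusted p = 0.856) turned to -0.01 after median centring. Without LSD1+8a replicate 1 the adjusted p was 0.0791 for SNORD75, 0.0752 for SNORD78 and 0.0555 for SNORD14E.

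**Figure D2:**
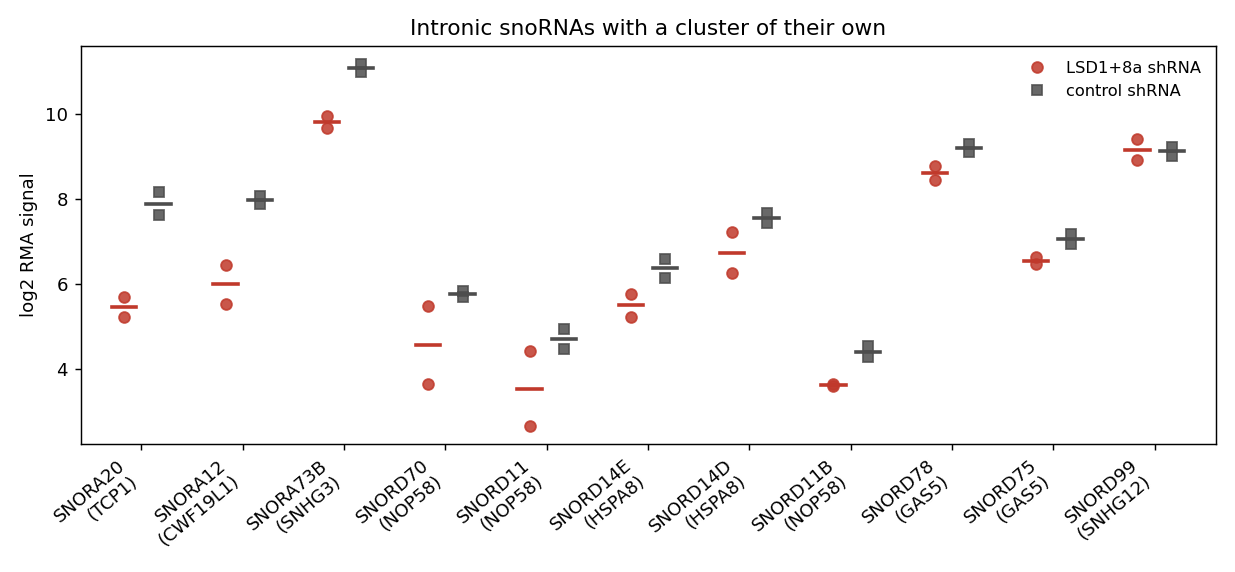
Log2 RMA signal (vertical axis) of the 11 intronic snoRNAs with a cluster of their own on each array, ordered by their difference, with the host in brackets. LSD1+8a shRNA arrays are circles, control arrays are squares and bars are group means. SNORA20, SNORA12 and SNORA73B show the widest gaps between groups, while SNORD70 and SNORD11 have LSD1+8a shRNA arrays that lie far apart.

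In all, 7 of the 11 snoRNAs with their own cluster were called lower and 0 higher, and SNORD11B is 1 of the 7. Of the 8 that lay above background on all arrays, 6 fell and 0 rose, with a median difference of -0.84. They held all 3 H/ACA RNAs, which all fell (median -1.99), and 5 C/D box RNAs, of which 3 fell (median -0.59). The difference between the classes was not tested. These counts stand in a background where snoRNA clusters were generally lower: 40.8% of the 240 snoRNA genes with 1 symbol were called lower, with a median of -0.47, and 4 were higher. Over all 22468 genes the median difference was 0.08. Median log2 signals over the 240 snoRNA genes were 5.10 and 5.25 on the LSD1+8a shRNA arrays and 5.77 and 5.50 on the control arrays. RNA was taken up with a silica-column kit that is known to recover very short RNAs poorly. Whether a snoRNA cluster reads the finished snoRNA or unspliced host RNA cannot be told apart here, and the part of RNA recovery in these differences was not tested.

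Set against their host in the wider fit of 219 pairs, which admits hosts in shared clusters, the difference of SNORA20 and of SNORA73B lay below that of the host cluster. SNORA20 minus the TCP1 cluster was -2.86 and -3.31 with the LSD1+8a shRNA, against -0.61 and -1.34 with the control shRNA, a difference of differences of -2.10 ± 0.30 (SE; limma adjusted p = 0.0123) and the lowest of the 219. SNORA73B minus the SNHG3 cluster was 3.14 and 2.87, against 4.04 and 4.16, or -1.10 ± 0.19 (SE; limma adjusted p = 0.0169). That cluster also carries RCC1 and SNORA73A, so its value is not that of SNHG3 alone. With 1 array left out, which leaves a group with a single array, the adjusted p was at most 0.0113 for SNORA20 and 0.0268 for SNORA73B. The 219 pairs include 90 from 2 hosts, SNHG14 and MEG8, and 20.1% of all pairs were called lower and 0% higher. Many snoRNAs of these 2 hosts lay below the background medians, such as SNORD115-1 (control mean 2.13), though others did not, such as SNORD116-15 (10.70). The SNORA12 minus CWF19L1 difference had an SE of 0.34 in this fit, against 0.38 among hosts with 1 symbol alone. Calls in the fit of 219 pairs, and their share, therefore depend in part on which pairs it holds. With 1 value for each of 102 hosts, the mean of the snoRNAs minus the host, TCP1 and SNHG3 were among the 9 hosts called lower (limma adjusted p = 0.0452 for each), a share of 8.82%, and CWF19L1 was not (0.0671).

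The other pairs of the shared hosts did not pass in that fit. SNORD75 and SNORD78 differed little from the GAS5 cluster, at -0.07 ± 0.17 and -0.16 ± 0.23 (SE), with 95% intervals from -0.50 to 0.35 and from -0.74 to 0.42. For HSPA8 the difference of differences was -0.83 ± 0.31 for SNORD14E and -0.77 ± 0.37 for SNORD14D (SE; limma adjusted p = 0.115 and 0.219). SNORD14E passed after quantile normalization (limma adjusted p = 0.0203) and cyclic loess (0.0152). With 1 array left out, the difference of differences lay between -1.15 and -0.52 for SNORD14E and between -1.29 and -0.25 for SNORD14D. Each passed in only some of those fits. Of the 11 pairs, only SNORD99 minus the SNHG12 cluster had a difference of differences above 0, at 0.38 ± 0.24 (SE; limma adjusted p = 0.327). The HSPA8 cluster carries the symbol SNORD14D as well. A shared cluster also holds probes for snoRNAs named with it, so its value is not that of the spliced host alone.

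**Figure D3:**
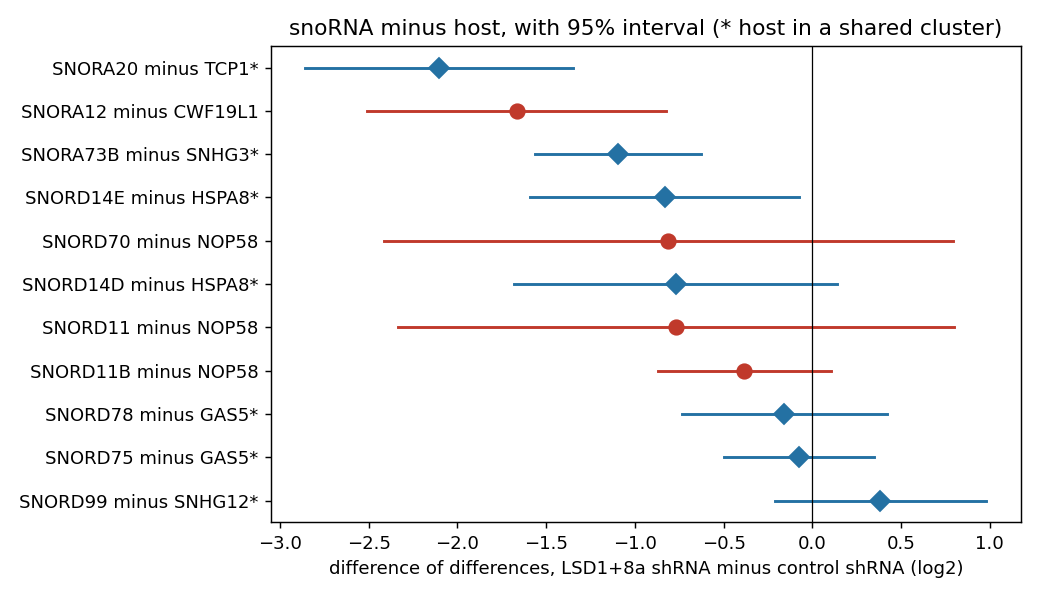
Difference of differences (horizontal axis, log2), the snoRNA minus its host compared between LSD1+8a shRNA and control shRNA arrays, with limma's 95% interval from the fit of 219 pairs. Red circles are hosts with a cluster of their own, and blue diamonds with an asterisk are hosts in a shared cluster. The intervals of SNORA20, SNORA12, SNORA73B and SNORD14E lie wholly below 0, of which SNORD14E was not called after adjustment, and the intervals of SNORD70 and SNORD11, which rest on signals at background, are the widest.

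At other hosts, too, the median snoRNA difference lay below the median host difference. Of 70 other hosts with 1 symbol and a snoRNA with its own cluster, 18 were called lower and 2 higher, with a median difference of -0.22, beside 11.2% lower and 12.1% higher over all genes. Of their 82 snoRNAs 49 were called lower and 2 higher, with a median of -0.74, beside 40.8% lower over all snoRNA genes. The difference of differences was below 0 in 62 of their 83 pairs, with a median of -0.48. Over all 240 snoRNA genes, with no host set against them, 189 differences lay below 0, with a median of -0.47. These counts and medians include snoRNAs below the background medians, whose values set no size. Examples are SNORA58 and SNORD127 (control means 2.54 and 3.50), with differences of differences of 0.49 and -0.54. In the fit with 1 value a host, 7 of the 72 hosts were called lower (9.72%), and neither CWF19L1 (adjusted p = 0.0615) nor NOP58 was among them. Pairs were formed by position alone, without regard to strand.

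**Figure D4:**
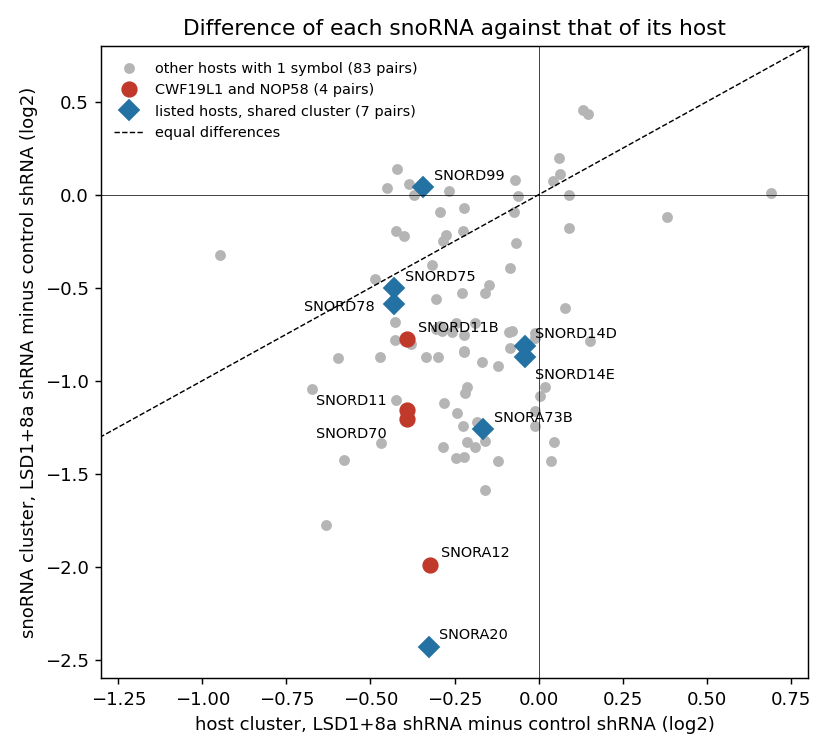
Difference of each snoRNA cluster (vertical axis) against that of its host cluster (horizontal axis), both LSD1+8a shRNA minus control shRNA on the log2 scale, 1 point a pair. Red circles are CWF19L1 and NOP58, blue diamonds are listed hosts in shared clusters, grey points are other hosts with 1 symbol, and the dashed line marks equal differences. SNORA12 and SNORA20 lie below all grey points, and SNORD99 lies above the line.

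Genes around the hosts in the same pathway were lower in part. Of 20 noncoding snoRNA hosts, 5 of them among the 10 above, 7 were called lower and 1 higher in the fit of 24008 features (11.0% lower and 11.6% higher over all), with a median of -0.24 beside 0.08 over all. Without those 5, 3 of 15 were called lower and 1 higher, with a median of -0.22. For 17 of the 20, the cluster carries other symbols as well. Beside the listed ones, the cluster with SNHG6 fell by 0.49 on the log2 scale (limma adjusted p = 0.0225), the cluster with SNHG29 by 0.43 (0.0426) and SNHG8 by 0.42 (0.0352 over genes with 1 symbol), while the cluster with SNHG9 rose by 0.45 (0.0347). Of 15 measured snoRNP proteins and assembly factors, 5 were called lower and 0 higher (11.2% lower and 12.1% higher over all genes), with a median of -0.23 beside 0.08 over all genes. Beside NOP58 these were NUFIP1 (-0.59), ZNHIT3 (-0.53), SHQ1 (-0.52) and ZNHIT6 (-0.32), of which NUFIP1, ZNHIT3 and ZNHIT6 help to assemble C/D box particles and SHQ1 H/ACA particles. The enzyme of each particle did not pass or stood in a shared cluster: FBL, the C/D box methyltransferase, differed by -0.23 (limma adjusted p = 0.0929), and the cluster with DKC1, the H/ACA pseudouridine synthase, by -0.18 (0.131).

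Some genes that free and trim snoRNAs, and some of nonsense-mediated decay, were also called lower. Of 8 release and trimming genes, 5 were called lower and 0 higher (11.2% and 12.1% over all genes), with a median of -0.32. They were the exonucleases XRN1 (-0.51) and XRN2 (-0.35), the intron-binding helicase AQR (-0.46), the deadenylase PARN (-0.37), which trims H/ACA RNAs, and DBR1, the lariat debranching enzyme (-0.28). All were close to the threshold, with limma adjusted p-values from 0.0267 (AQR) to 0.0477 (DBR1). Of 11 measured genes of nonsense-mediated decay and the exon junction complex, 4 were called lower and 0 higher (11.2% and 12.1% over all genes), with a median of -0.27: UPF2 (-0.51), MAGOH (-0.47), SMG8 (-0.38) and EIF4A3 (-0.29). UPF1, the central helicase of the pathway, differed by 0.17 and did not pass (limma adjusted p = 0.257). In bulk RNA, fewer cells of a type and less RNA per cell cannot be told apart.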

How the data were processed

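Total RNA (250 ng) of 4 SH-SY5Y samples was measured on Affymetrix human transcriptome arrays. The deposited values are log2 signals; per the submitters' processing notes the authors used RMA, which corrects background, normalizes by quantiles and summarizes probes. Software, annotation and build: not given in the sources used here. RMA gives no detection call. Of 67528 transcript clusters, 23784 carry 1 symbol (3 with it written more than once), 1540 carry several and 42204 are unnamed; 22468 genes resulted, with the highest-mean cluster where a gene had several (479 genes). Of these, 22170 matched the RefSeq gene table. Symbols of the array can be old.

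Values were compared as deposited, LSD1+8a shRNA minus control shRNA, with limma 3.58.1 in R 4.3.3 (lmFit, eBayes, two-sided) and Benjamini-Hochberg adjustment over all features of a fit, at 0.05. "Fell", "rose" and "called" mean past that threshold. Pairs were tested on the snoRNA minus host value of each array. The design called for pairs on the same strand, but the gene table holds no strand, so position alone was used. The fits with shared clusters and the count over snoRNAs above background were added after seeing the data. The members, gene lists and pairs were chosen with earlier results of these data known. Named genes are the hosts, their snoRNAs with a cluster, and up to 4 called members of each other list by size; FBL, the DKC1 cluster, UPF1, ZNHIT6, DBR1, SNHG8 and the SNHG29 cluster were added after their values were seen. Errors are limma's SE. Precision is limited by 2 arrays a group. In simulated data the gene fit recovered 16% of changes of 0.5 log2 units and 100% of changes of 1, 1.5 or 2, with 6 false calls. The fit of 87 pairs recovered 100% of changes of 2, with 1 false call. The simulated noise was independent between features and took its spread from the gene fit, and fewer genes changed than were called on these arrays. Some real pairs were noisy, such as SNORD70 minus NOP58 (SE 0.73), so the 100% does not hold for every pair. All host differences here were below 1 in size, so a host that was not called may still differ. Figures were drawn with matplotlib 3.10.9.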

Additional observations from a re-analysis of the deposited data

How the results depend on the processing

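Counts of calls moved with the setting, while directions mostly did not. With 1 array left out, where the lone array of a group is assumed to vary like the other group, the number of the 2 hosts called lower ranged from 0 to 1, of the 11 snoRNAs from 0 to 10, of the 4 pairs of CWF19L1 and NOP58 from 0 to 1, of the 8 shared host clusters from 0 to 3 and of the 7 shared-cluster pairs from 2 to 4. Median centring, quantile normalization and cyclic loess each left 1 of the 2 hosts called. Quantile normalization and cyclic loess left 2 shared clusters called. Each gave 1 of the 4 pairs called, as did the replicate block and the fit of 219 pairs. Under the filter above the median level only the SNORA12 pair was left of the 4. It was called, but SNORA12 cleared the filter through its control arrays. By host, 1 of 2 was called after quantile normalization, cyclic loess and with the replicate block. Trended moderation and the mean over clusters changed none of these counts. Over all genes, 2525 lower and 2721 higher calls became 3530 and 4425 with the replicate block, 887 and 473 without LSD1+8a replicate 1 and 1980 and 862 without LSD1+8a replicate 2, and the filter above the median level gave 2237 and 1322 of 11234. Of the 87 pairs, 13 were called lower with the block, 20 after quantile normalization, 22 after cyclic loess and, of the 40 left, 11 under the filter.

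With the replicate number as a block, 2 hosts, 10 of 11 snoRNAs and 6 shared clusters were called; the numbers share no documented batch, and deviations of same-numbered arrays correlated at 0.02 over genes, so no result rests on the block. SNORA12 minus CWF19L1 passed with it (adjusted p = 0.00637). Signs turned for SNORD99 (-0.0112 after median centring; -0.20 to 0.28 with 1 array left out), the HSPA8 cluster (0.14 after quantile normalization, 0.0814 after cyclic loess; -0.11 to 0.031), SNORD11 and SNORD70 minus NOP58 (-1.78 to 0.24 and -1.86 to 0.24), their host mean (-1.39 to 0.0833) and SNORD78 minus the GAS5 cluster (-0.41 to 0.0929). The filter above the median level removed 4 of the 11 snoRNAs. Of the 8 snoRNAs above background on all arrays, a limit chosen after seeing the data, 6 were called. Signals at background set no size for SNORD11, SNORD11B or SNORD70, their values minus NOP58 included.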
